A study of Arabidopsis thaliana with 8 samples.

Results

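The interaction between the CURLY LEAF (CLF) and SWINGER (SWN) genes was taken from all 8 arrays of the series, 2 for each of 4 genotypes of Arabidopsis thaliana. The clf-28 swn-7 double mutant was 12 days old, and the clf-28 single mutant, the swn-7 single mutant and Columbia (Col-0) wild type were 10 days old. The labels place all samples at growth stage 1.03 and give the mutants as T-DNA insertion lines. All samples were whole plants grown on nutrient agar after a cold treatment of the seeds, with no other treatment. Total RNA was measured on Affymetrix ATH1 arrays as 1 signal per probe set, on a linear scale. The double mutant was the only genotype sampled 2 days later, so loss of the second gene and the added age cannot be told apart in any interaction given here. The labels do not say if replicate arrays stand for independently grown plants, so each p-value covers only the spread between these arrays, part or all of which may be technical.

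CLF and SWN encode closely related histone methyltransferases, alternative catalytic subunits of Polycomb repressive complex 2 (PRC2). The complex places methyl groups on lysine 27 of histone H3, a mark of genes kept silent through development. In Arabidopsis, PRC2 holds embryonic and seed maturation genes silent after germination and keeps floral genes silent in leaves. Plants that lack CLF alone have curled leaves and early flowers, plants that lack SWN alone look nearly normal, and seedlings that lack both lose organ identity and form callus-like and embryo-like tissue. The comparison therefore asks which transcripts of the double mutant lie away from the level that the separate effects of both single mutants add up to.

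The additive level of a transcript was the log2 value of clf-28 plus that of swn-7 minus that of wild type. The interaction is clf-28 swn-7 minus this level, so a positive value means more transcript in the double mutant than both single effects give, and a value of 1 means 2-fold more. Signals under a floor of 10 were set to 10. Testing was limited to the 17332 of 22746 probe sets with 2 or more arrays above the floor. The test was limma with Benjamini-Hochberg adjustment over all of these and a threshold of 0.05. Each array had 15710 to 16291 probe sets above the floor. Replicate arrays lay 2-fold or more apart for 554 probe sets in clf-28 swn-7, 161 in clf-28, 357 in swn-7 and 1059 in wild type, so the wild type pair was the most spread of the 4. No probe set carries the name CLF or SWN in the platform annotation, so the mutated genes were not checked here.

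The interaction passed the threshold for 5378 probe sets, or 31.0% of those tested, with 2664 above the additive level (15.4%) and 2714 below it (15.7%). An unadjusted p under 0.05 was reached by 7442. Most calls rested on the double mutant: both of its arrays were above all 6 others in 2369 of the positive calls and below all 6 in 2431 of the negative calls. The remaining 295 positive and 283 negative calls had at least 1 double-mutant array inside the range of the other 6. Among positive calls the median log2 change from wild type was 1.19 in clf-28 swn-7, -0.09 in clf-28 and -0.16 in swn-7. For negative calls these medians were -1.41, 0.12 and 0.17 in the same order.

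Positive departures outnumbered negative ones only at the largest sizes. At least 2 log2 units of interaction were reached by 847 positive and 1046 negative calls, at least 3 by 401 and 428, and at least 5 by 145 and 53. Transcripts at the floor were part of both sets: in 303 positive calls both double-mutant arrays were above the floor and the other 6 arrays were at it, and in 275 negative calls both double-mutant arrays were at the floor. The sizes of these interactions depend on the floor, and among annotated genes above the floor on all 8 arrays the largest negative interaction, -7.47 for AT3G62550, exceeded in size the largest positive one, 6.78 for AT3G02480. In 648 positive calls the additive level itself fell below the floor, where no array can follow it. With all 8 arrays above the floor, 4059 of 13923 probe sets passed (29.2%), 1866 above and 2193 below the additive level.

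**Figure D1:**
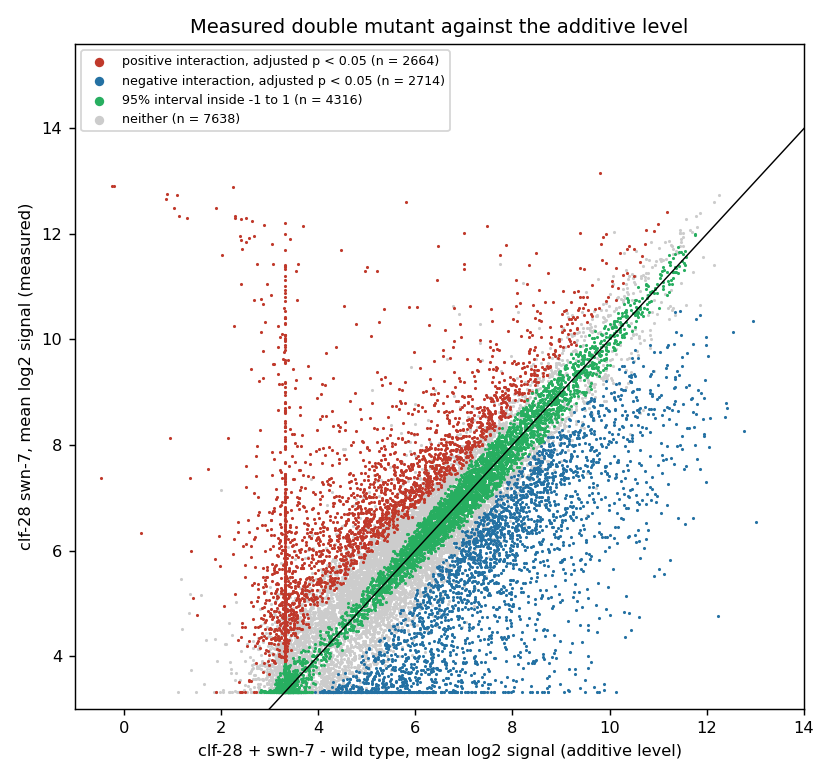
Log2 signal of the clf-28 swn-7 double mutant (vertical axis, mean of 2 arrays) against the additive level from both single mutants and wild type (horizontal axis), 1 point per probe set, with calls in red and blue, the 4316 near-additive and uncalled probe sets (95% interval inside -1 to 1) in green and the rest in grey. The 2664 positive calls lie above the line of equality and the 2714 negative calls below it, and the row at the bottom holds transcripts at the floor in both double-mutant arrays.

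Positive calls were more frequent among weakly expressed probe sets and negative calls among strongly expressed ones. With probe sets divided by mean level over all arrays into 4 groups of equal size, 20.1% of the lowest group were called above and 7.04% below the additive level. In the highest group, 11.9% were above and 26.6% below. The floor and the filter shape this contrast: the 303 positive calls with the other 6 arrays at the floor could not have been negative. Weak transcripts also have little room to fall before they reach the floor. The mean level includes the double-mutant arrays, so the contrast is a description only. The 5 nuclear chromosomes differed little, with 14.3% to 15.8% of annotated probe sets called positive and 13.2% to 15.1% called negative. Of 62 annotated pseudogenes tested, 11 were above (17.7%) and 2 below (3.23%) the additive level, beside 15.4% and 15.7% over all probe sets. The mean level of these pseudogenes was not taken into account.

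Seed storage and late embryogenesis abundant (LEA) transcripts showed large positive departures. Storage proteins and oil body proteins fill the cells of maturing seeds, and LEA proteins accumulate as the seed dries. All 7 tested members of the seed storage and oil body list were above the additive level, with a median interaction of 8.62, and so were all 17 tested members of the LEA list, with a median of 7.22. The median over all probe sets tested was 0.12, and -0.035 with arrays scaled to equal medians. An annotated probe set was found for 7 of 21 entries of the storage list and 20 of 30 of the LEA list. Of the 17 LEA members, 13 were at the floor on all 6 other arrays and passed the filter only through the double mutant. So did 2 of the 7 storage members. AT2G28490, also a storage member, was above the floor on 1 wild type array and likewise needed the double mutant to pass. For these members a positive value was therefore the only outcome the filter allowed. The additive level of OLEO3, PAP85, AT3G01570 and the LEA member AT3G17520 fell below the floor, so these could not have been negative either. In whole plants, more or fewer cells of a type and more or less RNA per cell cannot be told apart, for any transcript given here.

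OLEO3, an oleosin that coats seed oil bodies, was at 2146 and 2080 in clf-28 swn-7, at the floor on both clf-28 arrays, at the floor on both swn-7 arrays, and at 13.6 and 25.6 in wild type. Both double-mutant arrays were far above every other array, and only wild type had signal above the floor among the rest. Its interaction was 8.62 (SE 0.42, adjusted p = 2.32e-05). PAP85, a vicilin-like storage globulin, was at 4552 and 3518 in clf-28 swn-7, at 16.9 and 18.1 in clf-28, at the floor on both swn-7 arrays, and at 19.0 and 57.9 in wild type. Neither single mutant reached the higher wild type array, and the double mutant stood apart from all 6. The interaction of PAP85 was 9.57 (SE 0.65, adjusted p = 8.08e-05). The log2 additive levels of OLEO3 and PAP85, 2.42 and 2.40, lay below the floor, so only the size of these interactions was open.

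LEA18 was at 4502 and 4994 in clf-28 swn-7 and at the floor on all 6 other arrays, with an interaction of 8.89 (SE 0.25, adjusted p = 8.11e-06). No single-mutant change was measurable for it, and the same held for AT3G15670, another listed LEA gene, which was at 4640 and 3568 in clf-28 swn-7 and at the floor on all 6 other arrays. Its interaction was 8.67 (SE 0.28, adjusted p = 8.11e-06). The floor leaves no spread in clf-28, swn-7 or wild type for LEA18 and AT3G15670. Their SE and p-values therefore rest on the clf-28 swn-7 pair and limma's prior, and a small SE here does not show high precision. The same holds for every transcript at the floor on all 6 other arrays. AtLEA4-1 had the same pattern at a lower level, at 2860 and 2518 in clf-28 swn-7 and at the floor on all 6 other arrays, with an interaction of 8.07. LEA4-5 differed from these in having weak signal elsewhere: it was at 2422 and 3150 in clf-28 swn-7, at the floor and at 17.3 in clf-28, at the floor on both swn-7 arrays, and at 12.1 and at the floor in wild type. No genotype but the double mutant was above 20 on any LEA4-5 array.

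The 12 largest positive interactions of annotated genes ran from 8.47 to 9.86. AT1G47540, AT2G28490, AT2G15010, LEA18, BGLU19, AT3G15670 and AT3G54940 passed the filter only through the double mutant. Except in AT3G54940, with 1 swn-7 array above the floor, a positive value was the only outcome the filter allowed for them. PAP85, AT3G17520, AT3G01570, AT1G04560 and OLEO3 had an additive level below the floor, so a negative value was not possible for them either. AT1G47540 was at 5023 and 4889 in clf-28 swn-7, at the floor on both clf-28 arrays, at the floor on both swn-7 arrays, and at the floor and at 35.2 in wild type. The second wild type array alone lifted its wild type mean above both single mutants, which lowers the additive level and enlarges the interaction. Without that array the interaction was 8.95, against 9.86 with all 8 arrays. In 7 of these 12 genes the second wild type array was at least 2-fold above the first, and in none was it 2-fold below. Over all probe sets tested, 340 were 2-fold higher and 719 were 2-fold lower on the second wild type array. BGLU19, a beta-glucosidase family member, had little such spread: it was at 4127 and 3120 in clf-28 swn-7, at the floor on both clf-28 arrays, at the floor on both swn-7 arrays, and at 14.5 and at the floor in wild type, with an interaction of 8.76 (SE 0.35, adjusted p = 1.12e-05).

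Among genes above the floor on all 8 arrays, the 8 largest positive interactions ran from 5.23 to 6.78. The additive level of AT1G16850, which is among these 8, itself fell below the floor, where no array can follow it. ARPN, the cell wall copper protein plantacyanin, was at 2552 and 2468 in clf-28 swn-7, at 48.6 and 41.6 in clf-28, at 39.7 and 42.5 in swn-7, and at 61.0 and 56.8 in wild type. Replicates lay close together in every genotype, and both single mutants were below wild type while the double mutant was far above it. The interaction of ARPN was 6.32 (SE 0.21, adjusted p = 8.11e-06). BETA-VPE, a vacuolar processing enzyme that matures seed storage proteins, was at 2783 and 2519 in clf-28 swn-7, at 50.0 and 40.4 in clf-28, at 52.9 and 28.6 in swn-7, and at 48.6 and 59.96 in wild type. The other 3 genotypes overlapped one another and the double mutant stood apart, with an interaction of 6.35 (SE 0.41, adjusted p = 7.11e-05). AT3G02480 was at 6030 and 6394 in clf-28 swn-7, at 83.2 and 42.1 in clf-28, at 30.5 and 52.5 in swn-7, and at 29.8 and 59.2 in wild type. Its 6 other arrays overlapped among genotypes, and the interaction was 6.78 (SE 0.61, adjusted p = 0.000293).

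AT1G62290 was at 3598 and 3385 in clf-28 swn-7, at 129.6 and 99.98 in clf-28, at 74.9 and 92.2 in swn-7, and at 117 and 98.1 in wild type, with an interaction of 5.31. AT1G52100 was at 1455 and 1603 in clf-28 swn-7, at 96.8 and 70.0 in clf-28, at 73.3 and 68.3 in swn-7, and at 126 and 163 in wild type. In AT1G52100 all 4 single-mutant arrays were below both wild type arrays, so its interaction of 5.23 (SE 0.28, adjusted p = 3.62e-05) exceeded the log2 difference of the double mutant from wild type, 3.42. AT5G46230 had an interaction of 5.51 and AT5G59170 one of 5.58. The double-mutant arrays of AT5G59170, at 1185 and 615, differed from each other almost 2-fold, and its wild type arrays, at 25.2 and 73.1, nearly 3-fold.

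**Figure D2:**
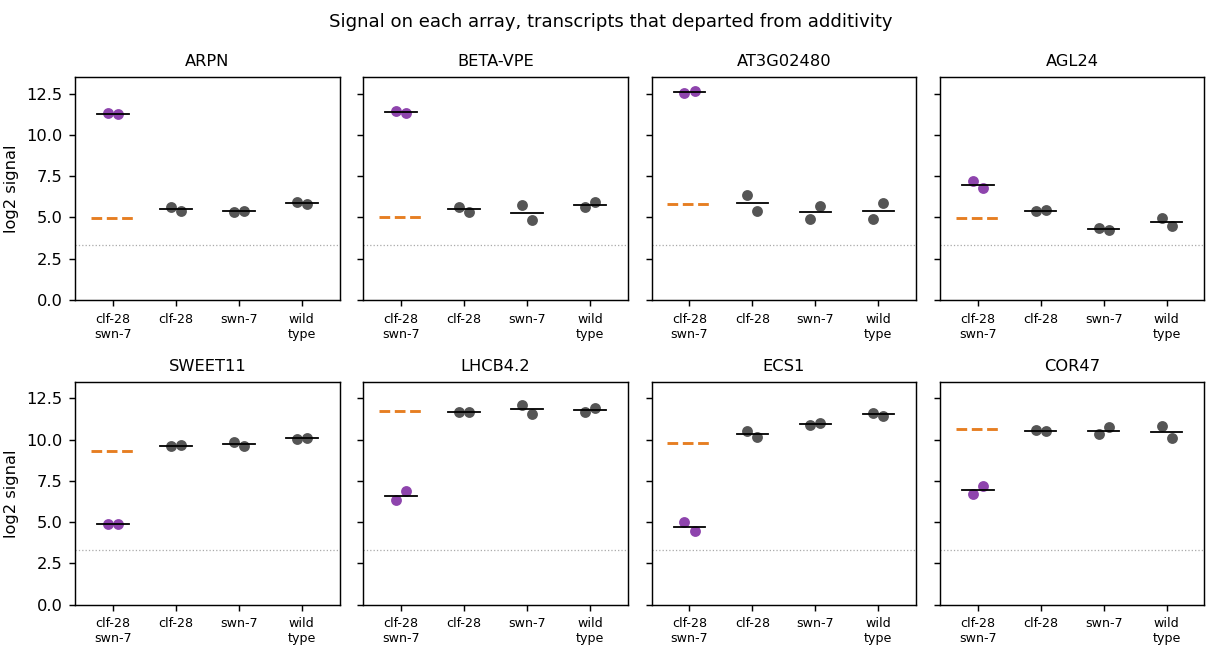
Log2 signal on each of the 2 arrays per genotype for 4 genes with a positive and 4 with a negative interaction, with clf-28 swn-7 at the left and wild type at the right of each panel. Points are arrays, black lines are means, dashed orange lines the additive level and dotted lines the floor, and the double mutant lies above the additive level in ARPN, BETA-VPE, AT3G02480 and AGL24 and below it in SWEET11, LHCB4.2, ECS1 and COR47.

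Genes of photosynthesis showed the opposite departure. The photosystem and light harvesting list had 10 members tested, of which 9 were below the additive level and 0 above it, with a median interaction of -3.55. All 3 tested Calvin cycle members and 7 of 9 chlorophyll synthesis members were below it, with medians of -3.19 and -1.95. Over all probe sets 15.7% were below it, and 26.6% in the group with the highest mean level. Every tested member of these 3 lists was above the floor on all 8 arrays, so the floor sets none of these values. The tested members are a part of each list. An annotated probe set was found for 10 of 61 photosystem and light harvesting entries, 3 of 20 Calvin cycle entries and 9 of 25 chlorophyll synthesis entries.

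LHCB4.2, which encodes the CP29 antenna protein of photosystem II, was at 80.9 and 119 in clf-28 swn-7, at 3301 and 3283 in clf-28, at 4482 and 3037 in swn-7, and at 3338 and 3863 in wild type. Both double-mutant arrays were far below the lowest of the other 6, and the single mutants overlapped wild type. Its interaction was -5.11 (SE 0.36, adjusted p = 9.17e-05). LHCB4.1, which encodes another CP29 protein, was at 258 and 336 in clf-28 swn-7, at 4092 and 3907 in clf-28, at 5504 and 3913 in swn-7, and at 4127 and 5348 in wild type, and the interaction was -3.74 (SE 0.35, adjusted p = 0.000326). The third CP29 gene, LHCB4.3, departed in neither direction by the test: it was at 182 and 261 in clf-28 swn-7, at 90.6 and 103 in clf-28, at 56.9 and 48.9 in swn-7, and at 58.5 and 36.3 in wild type, with an interaction of 0.98 (SE 0.39, adjusted p = 0.0978). LHCB4.3 was the 1 listed member that was not below the additive level.

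PSAN, a lumenal subunit of photosystem I, was at 113 and 192 in clf-28 swn-7, at 1909 and 2119 in clf-28, at 3158 and 2394 in swn-7, and at 3040 and 3011 in wild type, and its interaction was -3.63. NdhL, a subunit of the chloroplast NDH complex, had an interaction of -4.56. Among the carbon fixation enzymes, RCA, which activates Rubisco, was at 305 and 489.7 in clf-28 swn-7, at 4202 and 3808 in clf-28, at 5214 and 3701 in swn-7, and at 5624 and 4435 in wild type. Both double-mutant signals of RCA were far below the lowest of the other 6. The interactions were -3.19 for RCA, -3.19 for SBPASE, which encodes sedoheptulose bisphosphatase, and -3.70 for PRK, which encodes phosphoribulokinase.

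Chlorophyll synthesis genes had smaller departures than the photosystem genes by the medians above. CHLI2, a subunit of magnesium chelatase, had the largest departure of the list, -3.28 (SE 0.47, adjusted p = 0.00204). CHLM, the methyltransferase that acts after the chelatase, was at 159 and 210.0 in clf-28 swn-7, at 1158 and 1132 in clf-28, at 1204 and 990.4 in swn-7, and at 1005 and 1011 in wild type, with an interaction of -2.76. The other called members were HEME2 at -2.61, PORB at -2.31, HEMB1 at -1.95, HEME1 at -1.82 and AT1G74470 at -1.16. GSA1 and HEMA2, which act at the start of the pathway, did not pass, with interactions of -0.72 (adjusted p = 0.171) and 0.10 (adjusted p = 0.887).

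Plastid-encoded transcripts were mostly undetermined. Of 69 tested, 0 were above and 1 was below the additive level by limma's adjusted p, against 31.0% called in either direction over all probe sets, and 1 had its interval inside 2-fold, against 24.9%. The median SE of their interactions was 1.15, against 0.31 over all probe sets. The called one was psbE, a subunit of cytochrome b559 in photosystem II, which was at 554 and 712 in clf-28 swn-7, at 1412 and 1424 in clf-28, at 1948 and 1291 in swn-7, and at 1893 and 1386 in wild type, with an interaction of -1.14 (SE 0.36, adjusted p = 0.0463). The psbE call was lost without any 1 of 6 arrays, both of clf-28 swn-7, both of clf-28, the first of swn-7 and the second of wild type, with adjusted p from 0.0901 to 0.185. The uncalled rpl20, petN and rpl14 were each called under 1 of 21 alternatives. The median interaction of the 69 was nevertheless 1.45, and the second swn-7 array decides it. Relative to the wild type mean, their median log2 value was -0.82 and -0.49 on the clf-28 swn-7 arrays, -0.39 and -0.91 on the clf-28 arrays, -0.03 and -2.90 on the swn-7 arrays, and 0.22 and -0.22 on the wild type arrays. Without the second swn-7 array the median interaction was 0.26, and without the first it was 2.99.

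**Figure D3:**
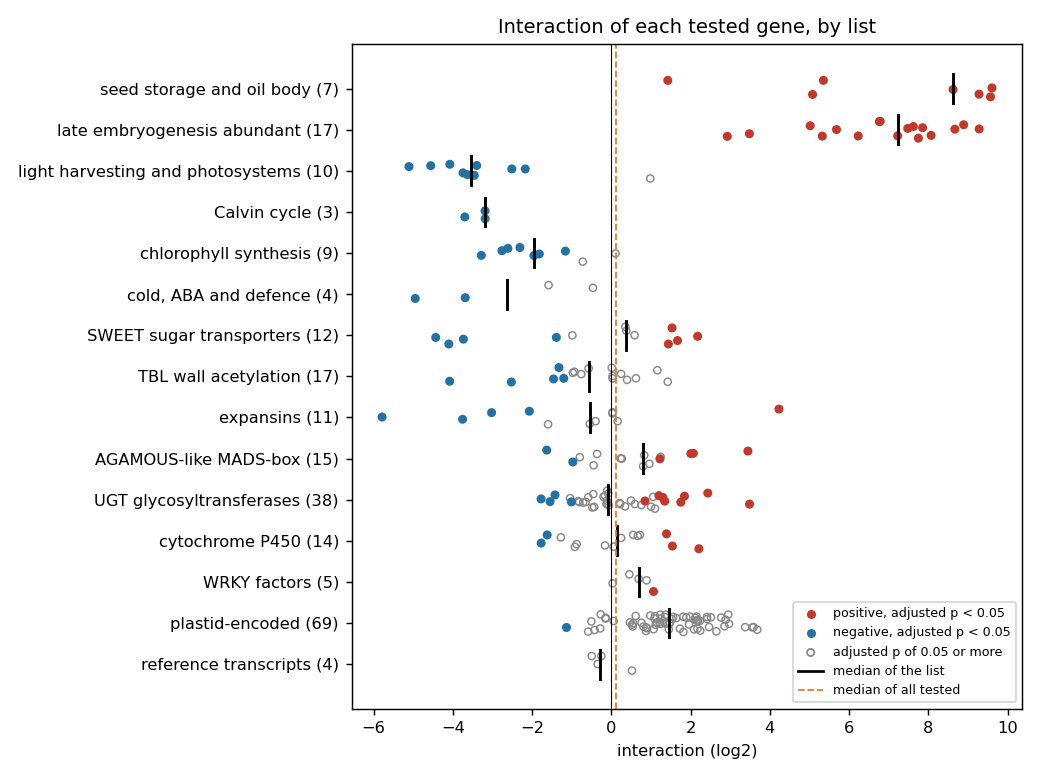
Interaction on the log2 scale (horizontal axis) of every tested member of each gene list (rows), 1 point per gene, coloured by whether the interaction passed the threshold. Storage and LEA members lie to the right, with medians of 8.62 and 7.22, photosystem members lie to the left, with a median of -3.55, and the reference transcripts lie near 0.

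The 12 largest negative interactions of annotated genes ran from -5.79 to -7.47. AT4G22490 was at 10.5 and at the floor in clf-28 swn-7, at 688 and 607 in clf-28, at 745 and 700.1 in swn-7, and at 465 and 532 in wild type. None of the other 6 arrays came near the double mutant, and the interaction was -6.52 (SE 0.20, adjusted p = 8.11e-06), the smallest SE among the 12. AT2G33850 was at 10.4 and at the floor in clf-28 swn-7, at 493 and 559.7 in clf-28, at 434 and 402 in swn-7, and at 321 and 469 in wild type, with an interaction of -5.79 (SE 0.28, adjusted p = 2.22e-05). In both genes the double mutant was at or next to the floor. EXPA8, an expansin that loosens cell walls, was at 18.7 and at the floor in clf-28 swn-7, at 260.0 and 228 in clf-28, at 508 and 299.7 in swn-7, and at 69.2 and 229 in wild type. Its wild type arrays were over 3-fold apart, and its interaction was -5.79 (SE 0.79, adjusted p = 0.00175). The second wild type array was at least 2-fold above the first in 8 of these 12 genes and 2-fold below it in none.

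ECS1 and AT2G45180 had all 8 arrays above the floor. ECS1 was at 32.2 and 21.8 in clf-28 swn-7, at 1481 and 1153 in clf-28, at 1936 and 2082 in swn-7, and at 3120 and 2830 in wild type. Its single-mutant arrays were all below wild type and the double mutant was far below those, a departure in the same direction as the single changes, with an interaction of -5.06 (SE 0.31, adjusted p = 5.53e-05). On a linear signal scale the departure of ECS1 was not called (adjusted p = 0.472). AT2G45180 was at 67.7 and 121 in clf-28 swn-7, at 3106 and 3286 in clf-28, at 3933 and 3181 in swn-7, and at 3710 and 3774 in wild type, and its interaction was -5.06. AT1G21500 and AT3G22210 had interactions of -5.40 and -5.11.

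In a smaller set the interaction opposed both single-mutant changes. Both changes were at least 2-fold and of the same sign in 315 probe sets, and the interaction was called with the opposite sign in 148 of them. Over all probe sets 15.4% were called positive and 15.7% negative, but the interaction subtracts both single changes and shares the wild type arrays with them, so choosing on these changes pushes it toward the opposite sign and the 148 are a description only. For the 6 largest of these among annotated genes, the wild type replicates were far apart: the second array was at least 2-fold above the first in 5 and 2-fold below it in 1. AT3G62550 was at 14.6 and 50.0 in clf-28 swn-7, at 1798 and 1968 in clf-28, at 2191 and 2048 in swn-7, and at 526 and 1309 in wild type. All 4 single-mutant arrays were above both wild type arrays and both double-mutant arrays were below them. Its interaction was -7.47 (SE 0.83, adjusted p = 0.000718), and it was -6.82 without the first wild type array.

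AT5G62280 was at the floor on both clf-28 swn-7 arrays, at 383 and 372 in clf-28, at 549 and 511 in swn-7, and at 106 and 303 in wild type. The groups do not overlap in this gene either, and its interaction of -6.80 was -6.04 without the first wild type array. AT1G16850 ran the other way and was at 586 and 594 in clf-28 swn-7, at 21.2 and 11.8 in clf-28, at 16.1 and 18.4 in swn-7, and at 66.5 and 23.4 in wild type, with an interaction of 6.42 (SE 0.68, adjusted p = 0.000604). Both single mutants were below both wild type arrays and the double mutant was above them by a wide margin. Without the first wild type array, which was the high one here, its interaction was 5.67. AT5G02540 was at 31.8 and 25.4 in clf-28 swn-7, at 154 and 149.8 in clf-28, at 343 and 720.4 in swn-7, and at 31.3 and 116 in wild type, with an interaction of -5.46 (SE 0.83, adjusted p = 0.00276). In AT5G02540 the swn-7 arrays were the highest of all and 1 wild type array was at the level of the double mutant.

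Loss of CLF can be read in plants that have SWN, as clf-28 against wild type, and in plants that lack it, as clf-28 swn-7 against swn-7, and these comparisons share no array. A change of at least 2-fold with no overlap between the arrays compared was required in each. Both sets were defined with the values in view. Of 225 probe sets higher in clf-28 than in wild type, 29 were also higher in clf-28 swn-7 than in swn-7 (12.9%) and 102 were lower there (45.3%). Over all probe sets tested, 14.2% were higher and 14.8% lower in clf-28 swn-7 than in swn-7. For 304 probe sets lower in clf-28, 24.7% were higher and 31.9% lower in clf-28 swn-7.

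Loss of SWN was read in the same way, as swn-7 against wild type and as clf-28 swn-7 against clf-28. Of 157 probe sets higher in swn-7 than in wild type, 9 were higher in clf-28 swn-7 than in clf-28 (5.73%) and 94 were lower (59.9%), where the shares over all probe sets were 13.0% and 15.5%. For 418 lower in swn-7, 28.2% were higher and 24.4% lower in clf-28 swn-7. The wild type array that set the selection mattered: without the first wild type array the share of clf-28 rises that were lower in the double mutant was 33.2% of 205 probe sets, and without the second it was 42.1% of 477. The corresponding shares of swn-7 rises were 50.6% of 87 and 49.1% of 446.

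The 6 largest rises of clf-28 over wild type among annotated genes were divided evenly between genes that kept the rise in the double mutant and genes that did not. SWEET10, a sugar transporter gene activated in the course of floral induction, was at the floor and at 12.8 in clf-28 swn-7, at 158 and 143 in clf-28, and at the floor on all 4 swn-7 and wild type arrays. Only the clf-28 arrays stood out, and the interaction was -3.74 (SE 0.27, adjusted p = 9.96e-05). AT3G19550 was at 16.3 and 12.4 in clf-28 swn-7, at 111 and 130.3 in clf-28, at 10.8 and 10.6 in swn-7, and at 12.2 and 13.7 in wild type, with an interaction of -2.81 (SE 0.30, adjusted p = 0.000589). AT5G39520 was at 11.8 and at the floor in clf-28 swn-7, at 158 and 273 in clf-28, at the floor and at 15.8 in swn-7, and at 19.9 and 26.6 in wild type, with an interaction of -3.38 (SE 0.48, adjusted p = 0.0021). In all 3 genes the double-mutant arrays were far below both clf-28 arrays.

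The other 3 genes were high whenever CLF was lost. AT1G09500 was at 142 and 115 in clf-28 swn-7, at 159.9 and 166 in clf-28, at the floor on both swn-7 arrays, and at 13.6 and 17.1 in wild type. The interaction was 0.26 (SE 0.30, adjusted p = 0.542), with a 95% interval from -0.44 to 0.96. AT1G03710 was at 90.7 and 91.7 in clf-28 swn-7, at 53.8 and 58.5 in clf-28, and at the floor on all 4 swn-7 and wild type arrays, and its interaction was 0.70 (SE 0.25, adjusted p = 0.0693). AT5G39220 was at 113 and 87.7 in clf-28 swn-7, at 74.0 and 105 in clf-28, at 10.4 and at the floor in swn-7, and at 14.4 and 12.1 in wild type, and its interaction was 0.55 (SE 0.35, adjusted p = 0.277). For AT1G03710 the interaction was called above the additive level under 6 of 20 alternatives, among them leaving out the first or the second clf-28 swn-7 array (adjusted p = 0.0319 and 0.0283), and it was 2.13 with no floor (adjusted p = 0.0728). The clf-28 swn-7 and clf-28 arrays of these 3 genes were all above 50, and the swn-7 and wild type arrays were all below 20. Wild type replicates were within 2-fold of each other for all 6 genes.

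**Figure D4:**
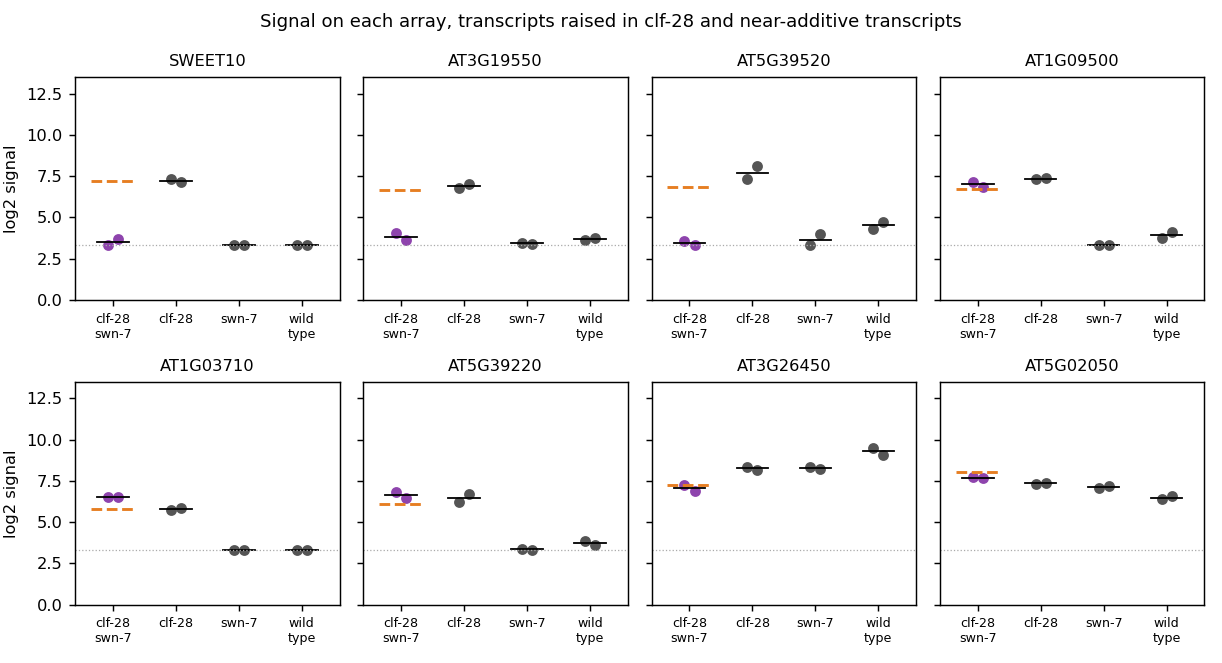
Log2 signal on each array, by genotype, for the 6 annotated genes with the largest rises of clf-28 over wild type, and for 2 near-additive genes, AT3G26450 and AT5G02050, with clf-28 swn-7 at the left, wild type at the right and dashed lines at the additive level. SWEET10, AT3G19550 and AT5G39520 are high in clf-28 alone, and AT1G09500, AT1G03710 and AT5G39220 are high in both genotypes that lack CLF.

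**Figure D5:**
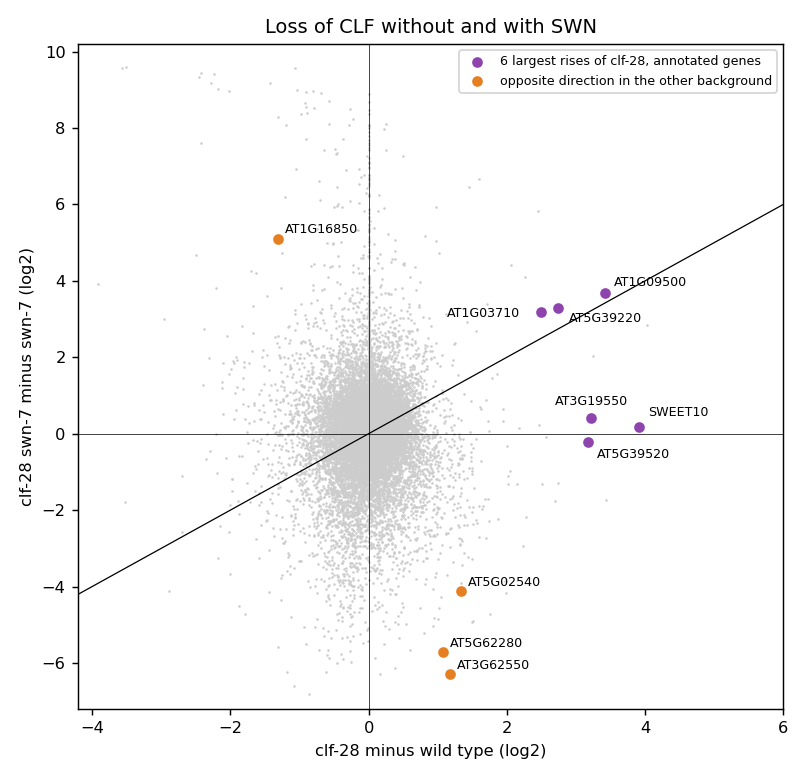
Log2 change on loss of CLF in plants that lack SWN (vertical axis) against the same change in plants that have SWN (horizontal axis), 1 point per probe set, with a line where both are equal. AT1G09500, AT1G03710 and AT5G39220 lie near the line, SWEET10, AT3G19550 and AT5G39520 lie near 0 on the vertical axis, and AT3G62550, AT5G62280, AT5G02540 and AT1G16850 have opposite signs on the axes.

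Near-additive transcripts were those whose 95% interval of the interaction lay inside -1 to 1, that is within 2-fold of the additive level. There were 4324, or 24.9% of those tested, of which 3614 had all 8 arrays above the floor. Between these and the called departures were 7638 probe sets (44.1%) that were neither called nor held to 2-fold, and 8 were both. The median SE of an interaction was 0.31. Most near-additive transcripts changed little in any genotype: 183 differed 2-fold or more between clf-28 swn-7 and wild type. In 2482 probe sets the single changes summed to a log2 change of at least 1 in size, and 147 of them were near additive. The interaction subtracts this sum and shares its arrays, so choosing a large sum pushes the interaction away from 0. The 147 are therefore a description only.

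The 8 near-additive genes with the largest summed single changes included falls and rises. AT3G26450 was at 149.8 and 118 in clf-28 swn-7, at 325 and 289.7 in clf-28, at 322 and 303 in swn-7, and at 716 and 551 in wild type. The levels stepped down with each loss, with single changes of -1.03 and -1.01 and a double-mutant change of -2.24, and the interaction was -0.20 (SE 0.26, adjusted p = 0.589). MSRB5, a methionine sulfoxide reductase, was at 349 and 254 in clf-28 swn-7, at 564 and 598 in clf-28, at 386 and 555 in swn-7, and at 1118 and 723 in wild type, with an interaction of -0.01 and a 95% interval from -0.90 to 0.89. Cpn60beta2, a subunit of the chloroplast chaperonin, was at 197 and 229 in clf-28 swn-7, at 372 and 388 in clf-28, at 320.0 and 255 in swn-7, and at 683 and 458 in wild type, with an interaction of 0.13. Double-mutant arrays were the lowest in each of these genes.

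Transcripts that rose near-additively were also found. AT3G03060 was at 35.7 and 39.2 in clf-28 swn-7, at 18.4 and 25.5 in clf-28, at 18.6 and 24.3 in swn-7, and at 14.1 and 11.2 in wild type, and its interaction was 0.03 (SE 0.35, adjusted p = 0.956). AT5G02050 was at 217 and 202 in clf-28 swn-7, at 157 and 169 in clf-28, at 136 and 149 in swn-7, and at 83.7 and 95.9 in wild type, with an interaction of -0.31, and AT3G08780 had one of -0.13. For none of the 8 genes did a single-mutant change pass the threshold by itself, while all 8 differed between clf-28 swn-7 and wild type, with log2 changes from -2.24 to 1.57. The double-mutant change is the summed single changes plus the interaction. Since the 8 were chosen for a large sum and a small interaction, this difference largely follows from the choice. Of the 4 tested reference transcripts, genes used to normalise expression, 0 were called and 3 had the interval inside 2-fold, with interactions from -0.50 for PEX4 to 0.52 for AT2G28390.

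Of the annotated embryo, flowering and epidermal regulators described next, BBM, AGL67, AGL71 and MUTE passed the filter only through the double mutant. For these genes the other 6 arrays were at the floor, so the SE and p-values carry no spread from them. BBM (BABY BOOM), an AP2-type factor that drives embryo formation, was at 66.8 and 54.6 in clf-28 swn-7 and at the floor on all 6 other arrays, with an interaction of 2.59 (SE 0.23, adjusted p = 0.000285). It was the 1 annotated member of 15 listed embryo and seed maturation regulators. AGL67, a MADS-box gene known from seed maturation, was at 169.7 and 70.0 in clf-28 swn-7 and at the floor on all 6 other arrays, with an interaction of 3.45. Among flowering genes, AGL24, which promotes the transition to flowering, was at 146 and 110.2 in clf-28 swn-7, at 41.7 and 43.7 in clf-28, at 20.4 and 18.6 in swn-7, and at 31.0 and 22.4 in wild type. The clf-28 arrays of AGL24 were above wild type, the swn-7 arrays were below it, and the interaction was 2.01 (SE 0.34, adjusted p = 0.00462).

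AGL42, a relative of the floral integrator SOC1, had an interaction of 2.07, and AGL71, of the same clade, one of 1.22, which was not called with a floor of 20 (adjusted p = 0.432) or with no floor (adjusted p = 0.106). AGL19, a flowering promoter, was at 12.4 and at the floor in clf-28 swn-7, at 17.1 and 15.1 in clf-28, at the floor on both swn-7 arrays, and at 11.1 and at the floor in wild type. It was highest in clf-28, and the interaction, -0.45 (SE 0.23, adjusted p = 0.181), did not pass. Without the first clf-28 swn-7 array AGL19 did pass, at -0.61 (adjusted p = 0.0481). Of 15 tested AGAMOUS-like genes, 4 were above and 2 below the additive level, with a median of 0.80, beside 15.4% above and 15.7% below over all probe sets. In 3 of the 15 the other 6 arrays were at the floor, so these could not have been below it. ULT1, a trithorax factor that opposes Polycomb silencing, was at 212 and 239 in clf-28 swn-7, at 34.0 and 41.6 in clf-28, at 64.1 and 69.0 in swn-7, and at 164 and 71.2 in wild type. Its single mutants were below wild type, the double mutant was above, and the interaction was 3.28 (SE 0.50, adjusted p = 0.00286).

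LAS, which is needed to start side shoots, was called at 1.24, though neither with a floor of 20 (adjusted p = 0.115) nor with no floor (adjusted p = 0.0833). MUTE, which turns epidermal cells toward guard cell fate, was at 35.5 and 34.0 in clf-28 swn-7 and at the floor on all 6 other arrays, with an interaction of 1.80. SPCH and FMA, which act before and after MUTE in the same lineage, were not called, with interactions of -0.49 and -1.01. Of the tested root markers, the root hair expansin EXPA18 was below the additive level at -2.07 (SE 0.45, adjusted p = 0.012) and EXPA7 did not pass at -1.60 (SE 0.56, adjusted p = 0.0649). Leaving out the first or the second clf-28 swn-7 array ended the call of EXPA18 (adjusted p = 0.0521 and 0.0705), and leaving out the first swn-7 array made one for EXPA7 (adjusted p = 0.0136), which was called under 5 of 20 alternatives in all. EMS1, the 1 tested anther marker, was not called, with an interaction of -0.32.

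ICL, isocitrate lyase of the glyoxylate cycle that turns seed oil into sugar, was at 4612 and 4485 in clf-28 swn-7, at the floor on both clf-28 arrays, at the floor and at 22.8 in swn-7, and at the floor and at 13.6 in wild type, with an interaction of 8.46 (SE 0.52, adjusted p = 6.11e-05). SDP1, the lipase that begins the breakdown of seed oil, was at 187 and 170.1 in clf-28 swn-7, at 160.0 and 157 in clf-28, at 134 and 154 in swn-7, and at 135 and 122 in wild type, and its interaction was 0.01 (SE 0.20, adjusted p = 0.975), near additive.

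Most gene families taken by symbol held departures of both signs. SWEET sugar transporters had 4 above and 4 below the additive level of 12 tested. Of these, SWEET3, SWEET6 and SWEET7 passed the filter only through the double mutant and could not have been below it. SWEET11, which exports sucrose for phloem loading in leaves, was at 29.2 and 29.4 in clf-28 swn-7, at 781 and 819 in clf-28, at 923 and 798 in swn-7, and at 1054 and 1112 in wild type, with an interaction of -4.43 (SE 0.18, adjusted p = 1.17e-05). SWEET2, a vacuolar transporter, was at the floor and at 11.2 in clf-28 swn-7, at 151 and 164 in clf-28, at 86.6 and 119 in swn-7, and at 80.2 and 96.1 in wild type, and its interaction was -4.10. SWEET7 was at 32.1 and 31.5 in clf-28 swn-7 and at the floor on all 6 other arrays, with an interaction of 1.67. The trichome birefringence-like (TBL) genes, which acetylate cell wall polymers, had 0 above and 5 below of 17 tested, with -4.08 for TBL45 as the lowest.

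Expansins had 1 above and 4 below of 11 tested. EXPA20 was the 1 above: it was at 672 and 382 in clf-28 swn-7, at 23.6 and 26.4 in clf-28, at 19.1 and 24.1 in swn-7, and at 23.4 and 16.7 in wild type, with an interaction of 4.23 (SE 0.45, adjusted p = 0.000592). The UGT glycosyltransferases had 8 above and 4 below of 38 tested, with a median of -0.09, and 7 were near additive. UGT73B4 was the highest, at 3.49. Cytochrome P450 genes had 3 above and 2 below of 14, and WRKY factors 1 above and 0 below of 5. The WRKY call, WRKY6, was lost without any 1 array but the second of swn-7 (adjusted p up to 0.129). Among the P450 calls, CYP71B37 was lost without any 1 of the clf-28 swn-7 and clf-28 arrays (up to 0.0823). CYP71B26 was lost without either clf-28 swn-7 array, either swn-7 array or the second clf-28 array (up to 0.102). CYP71B29 was lost without either clf-28 swn-7 array or the second array of clf-28 or swn-7 (up to 0.0844). The shares in all of these families stand beside 15.4% above and 15.7% below over all probe sets.

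The list of cold, abscisic acid and defence genes had 0 above and 2 below the additive level of 4 tested, and of 2 tested genes of age and senescence 1 was above. COR47, a dehydrin, was at 105 and 149.5 in clf-28 swn-7, at 1534 and 1463 in clf-28, at 1281 and 1777 in swn-7, and at 1817 and 1080 in wild type, with an interaction of -3.69 (SE 0.42, adjusted p = 0.00076). COR15B, a chloroplast cryoprotective protein, had an interaction of -4.95. The related COR15A did not pass, at -1.59 (SE 0.55, adjusted p = 0.0629), but did under 5 of 21 alternatives, among them leaving out the second clf-28 swn-7 array (adjusted p = 0.0344). The defence gene PDF1.2, a defensin, was near the floor and not called, at -0.47 (SE 0.39, adjusted p = 0.399). SAG29, a sugar transporter gene induced in senescence, was at 128 and 88.2 in clf-28 swn-7, at 14.6 and 36.8 in clf-28, at 22.6 and 18.3 in swn-7, and at 38.3 and 54.6 in wild type. Both single mutants of SAG29 were below wild type, the double mutant was above, and the interaction was 3.37 (SE 0.62, adjusted p = 0.00639). The SAG29 call was lost without the first clf-28 swn-7 array (adjusted p = 0.0679). WRKY53, a regulator of leaf senescence, was near the floor on all arrays, with an interaction of 0.45 (SE 0.47, adjusted p = 0.499). The part of age in any of these values was not tested.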

How the data were processed

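Total RNA from whole plants of 4 genotypes was hybridised to ATH1 arrays, 2 per genotype. The deposited values are array intensities on a linear scale, 1 signal per probe set. MAS5 and GCOS appear, with no version, in the submitters' processing notes. The trimmed mean was equal on all arrays, so no scaling was added. All columns of the deposited table were used.

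The 64 control probe sets were dropped from 22810, signals were floored at 10, and log2 was taken. Probe sets above the floor on at least 2 arrays were fitted with limma 3.58.1 in R 4.3.3 (lmFit with 1 mean per genotype, eBayes with a trend, 4 residual and 3.43 prior degrees of freedom). The interaction was tested two-sided, with Benjamini-Hochberg adjustment over all 17332 and a threshold of 0.05. Errors are limma's standard errors (SE). A genotype with all its arrays at the floor adds no spread to the SE. The number of arrays limits the precision. On simulated arrays with 200 changed probe sets of 17332, 56% of those changed by log2 2 and 95% of those changed by log2 4 were recovered, with 5 false calls. The simulation used normally distributed noise with no floor, and far fewer changed probe sets than the 5378 called in the data. Its shares therefore do not give the recovery in the data.

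Genes were named from the platform annotation, in which 13513 probe sets have 1 gene, 503 have several and 8794 have no entry, and symbols were updated through RefSeq for 13436. A gene takes its probe set with the highest mean. Named genes follow a rule: the 12 largest called interactions of each sign with no overlap, the 8 largest of each sign with all arrays above the floor, the 6 largest opposed to both single changes, the 8 near-additive genes with the largest summed single changes, the 6 largest clf-28 rises, and up to 4 members per list by smallest adjusted p. LHCB4.3, GSA1, HEMA2, HEME2, PORB, AT1G74470, SWEET3 and SWEET6 fall outside the rule. They were named after their values were seen, to account for their lists. Members and lists were chosen with earlier results of these data known. No chromosome coordinates or sequences were used.

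Alternatives were other floors or none, a constant added, other scalings and filters, other variance settings, a 2-fold minimum, the replicate number as a block, additivity on the linear scale, and each array left out in turn, taking the spread of the genotype's lone remaining array from the other genotypes.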

Additional observations from a re-analysis of the deposited data

Results flagged for a closer look

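In 4 of the 6 named genes where both single mutants moved against the interaction, loss of either gene went at least 2-fold one way with its partner present and at least 2-fold the opposite way without it, with no overlap of the arrays compared. AT3G62550 had an interaction of -7.47 (SE 0.83, adjusted p = 0.000718), with a log2 change of -6.29 for loss of CLF without SWN and 1.18 with it. For AT5G62280 the interaction was -6.80 (SE 0.59, adjusted p = 0.000242), and the same changes were -5.73 and 1.08. For AT5G02540 it was -5.46 (SE 0.83, adjusted p = 0.00276), with -4.13 and 1.33. AT1G16850 ran the other way, with an interaction of 6.42 (SE 0.68, adjusted p = 0.000604) and changes of 5.10 and -1.32. None of the single-mutant changes of these 4 genes from wild type passed the threshold by limma. Without the first wild type array the interactions were -6.82, -6.04, -4.51 and 5.67 in the order given above. Groups of 2 arrays are too small for a test of single outlying arrays.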

How the results depend on the processing

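The 5378 calls became 1450, with 641 above and 809 below the additive level, when an interaction of more than 2-fold was required. With arrays left out in turn the calls ranged from 3278 to 5681, the positive ones from 1523 to 2911, the negative ones from 1755 to 2770, and the near-additive probe sets from 2752 to 4029. Leaving out the first clf-28 swn-7 array gave 3556 calls, the first clf-28 array 3395 and the second clf-28 array 3278, each with 1 residual degree of freedom fewer, and near-additive counts were 2752 and 2761 without the clf-28 arrays. Under the other alternatives run, the counts stayed within 1.5 times: 4022 calls with no filter, 4492 on the linear scale (2537 above and 1955 below), and 2107 above and 3092 below with equal medians, which moved the median interaction of all probe sets to -0.035 from 0.119. Replicate numbers did not pair the arrays, since the correlations of their deviations between genotypes ran from -0.078 to 0.222. With the replicate number as a block there were 5272 calls, 2623 above and 2649 below, and 4244 near-additive probe sets. No named gene called with all arrays changed sign, while 11 of the negative calls over all probe sets had a positive departure on the linear scale. Of 118 named genes, 75 kept their call and direction under every alternative that tested them. On the log2 scale, a change of sign in an uncalled gene was counted as kept if the shift was under its SE. In all, 12 named genes that were uncalled in both settings changed sign, 36 times over the alternatives. Interactions of transcripts at the floor have no fixed size, and their SE and p-values leave out any spread below the floor.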
